A study of Mus musculus with 8 samples.

Results

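The 8 genes described here encode the hormones of the pituitary gland and of its stalk, and they were followed in the median eminence (ME) of the mouse, at the floor of the third ventricle. They are Cga, the glycoprotein hormone alpha subunit; Tshb, Lhb and Fshb, the beta subunits that pair with it to form thyrotropin, luteinizing hormone and follicle-stimulating hormone; Gh, growth hormone; Prl, prolactin; Pomc, the precursor of corticotropin, melanocyte-stimulating hormone and beta-endorphin; and Cck, cholecystokinin. The genes were chosen by name, and all 8 were present among the 27998 genes of a single-cell library and among the 55450 genes of a bulk count matrix. The single-cell library held ME cells pooled from 10 wild-type female C57BL/6 mice (C57BL/6N in the methods) that were 2 months old. The bulk matrix held 3 control libraries, whose mice were labelled wild-type, and 4 libraries from Rax-CreERT2::BrafV600E mice, each of microdissected ME from 1 mouse. Both groups were labelled as C57BL/6 and as 2 months old. The methods give a backcross of all mice to C57BL/6N and place the dissection 2 months after tamoxifen. In the mutant mice a tamoxifen-dependent Cre recombinase knocked into Rax, a gene of tanycytes (the ventricle-lining cells of the ME), switches on the oncogenic Braf allele. By the study's description the mutant ME carries a tumor that resembles papillary craniopharyngioma. The sex of the bulk mice was not given by the labels.

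Each glycoprotein hormone is a dimer of the shared alpha subunit and a specific beta subunit, and the beta subunit gives the hormone its receptor. Thyrotropes, gonadotropes, somatotropes, lactotropes and corticotropes of the anterior lobe and melanotropes of the intermediate lobe make these hormones for the blood. The pars tuberalis, the thin sheet of pituitary tissue that wraps the stalk and touches the ME, also makes thyrotropin, and there its production follows day length through melatonin. Pomc is in addition a transcript of arcuate nucleus neurons that lower food intake, and Cck is a gut and brain peptide as well as a product of pars tuberalis cells.

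Core promoter sequences are shown first, because 6 of the 7 genes with a promoter in the RefSeq table (all but Gh; GRCm38.p6, 250 bases before to 50 after the start) share a feature that Cck lacks. The letters TATAAA, the TATA box, were found on the gene's own strand between 20 and 40 bases before the start in Cga, Tshb, Lhb, Fshb, Prl and Pomc, and in 1.99% of all 32851 promoters. The 30 bases around each match are given 5′ to 3′ on the gene's strand with TATAAA in capitals.
Cga (30 bases before the start, chr4:34893738-34893767, plus strand): tactctgctggTATAAAagacagtgggaga
Tshb (27 bases before, chr3:102782723-102782752, minus strand): gaatgcaattaTATAAAcaagaagatcaga
Lhb (31 bases before, chr7:45420904-45420933, plus strand): caacccgcaggTATAAAgccaggtgcccaa
Fshb (30 bases before, chr2:107059663-107059692, minus strand): ttttaagtttgTATAAAagatgaggtgtaa
Prl (24 bases before, chr13:27057535-27057564, plus strand): tgtcaaaggttTATAAAgccagtgtctgca
Pomc (25 bases before, chr12:3954909-3954938, plus strand): aaccctgcaagTATAAAagaagagagaaga
On either strand and anywhere in the window, TATAAA was in 13.6% of all promoters. In Prl the match overlapped one on the other strand, and Tshb had further matches. A match is a description of the letters only.

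The other letters searched, on both strands, were those bound by pituitary factors. TAATCC, recognised by Pitx1, was in none of the 7 windows and in 7.06% of all promoters, and TTATGNAA, the D-box read by Tef, was in none and in 3.38%. TCACAC, a short T-box site, was in the Lhb window alone among the 7 and in 14.5% of all promoters. The Nr5a1 site TCAAGGNCA, named for the gonadotrope factor Nr5a1, was in the Cga window alone and in 1.62% of all promoters. It starts 215 bases before the start of Cga, on the opposite strand, and is shown because Cga is the alpha subunit of the gonadotropins.
Cga (chr4:34893553-34893582, plus strand, capitals mark the reversed site): tcttcataagcTGTCCTTGAggtcaccact

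The single-cell library came from a droplet method that counts transcripts by unique molecular identifiers (UMIs). It held 990 cells and 9846289 UMIs, between 3284 and 57119 a cell. There was a single pooled library, so no test was run across cells. Levels are the CPM of a cell cluster, its UMIs of a gene scaled by all its UMIs, with exact Poisson 95% intervals, shares of cells have Clopper-Pearson 95% intervals, and both cover counting error only. The cells were clustered without the 8 genes and without the other genes of the pituitary lists given further on, which left 4817 variable genes and gave 11 clusters. Cluster 6, with 54 cells and a median of 5330 UMIs, was named pars tuberalis-like because 5 of 6 markers that are not hormones (among them Pitx1, Lhx3 and the melatonin receptor Mtnr1a) had at least 3 times the CPM of other cells. Of 8 markers of other pituitary endocrine cells, 2 did so. With 10 instead of 20 components no cluster received this name, and the cells with hormone UMIs fell together into a cluster of 44 cells whose leading list was endothelial. The free-RNA level was read in 242 erythrocyte-like cells, which should not transcribe any of the 8 genes and had a median depth of 7707.5 UMIs. Globin transcripts made up 92.7% of the UMIs of these cells, so means per cell are given beside CPM for Cga, Cck, Tshb and Pomc.

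Cga, the alpha subunit, marked the pars tuberalis-like cluster. It reached 13594 CPM there (6161 UMIs, interval 13256 to 13937), and the next cluster, an unnamed one with tanycyte and ependymal markers, reached 131 CPM (111 to 154). The remaining clusters lay between 42.8 CPM in erythrocyte-like cells and 91.4 CPM in macrophage or microglia-like cells, and each overlapped the interval of its neighbour in that order. Cga was thus detected in every cluster, and the pars tuberalis-like value was 104 times the next highest and 318 times that of erythrocyte-like cells. At least 1 Cga UMI was seen in 66.7% of pars tuberalis-like cells (52.5 to 78.9%) and in 27.7% of erythrocyte-like cells (22.1 to 33.8%). In the latter no cell had more than 4. Per cell the means were 114 UMIs in the pars tuberalis-like cluster, 0.372 in erythrocyte-like and 0.35 in VLMC-like (vascular and leptomeningeal) cells. The latter cluster had all 6 VLMC, all 7 endothelial and all 6 mural markers, and its name is only the first of these lists. The macrophage or microglia-like cluster had 3 of 4 mast cell markers besides its own 7.

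Cck followed Cga closely. The pars tuberalis-like cluster held 9198 CPM (8921 to 9482), 71.0 times the 130 CPM (110 to 152) of the unnamed cluster with tanycyte and ependymal markers, and erythrocyte-like cells held 36.6 CPM. Among the other 9 clusters Cck ran from 32.1 CPM in oligodendrocyte-like to 56.0 CPM in macrophage or microglia-like cells with overlapping intervals. A Cck UMI was seen in 50% of pars tuberalis-like cells (36.1 to 63.9%) and in 24.4% of erythrocyte-like cells (19.1 to 30.3%), with means of 77.2 and 0.318 UMIs a cell.

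Tshb, the beta subunit of thyrotropin, was scarcer. It was at 646 CPM (575 to 725) in the pars tuberalis-like cluster, from 293 UMIs, and at no more than 11.2 CPM in any other cluster. The other 10 clusters held between 0 and 8 Tshb UMIs each, and their intervals overlapped. Of all Tshb UMIs, 86.7% fell in the pars tuberalis-like cluster, and 33.3% of its cells (21.1 to 47.5%) had at least 1 against 3.31% of erythrocyte-like cells (1.44 to 6.41%), with means of 5.43 and 0.0331 UMIs a cell. No cell outside the cluster carried more than 2.

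Pomc had a second source. It stood at 5474 CPM (5261 to 5694) in the pars tuberalis-like cluster and at 694 CPM (650 to 740) in neuron-like cells, a cluster of 49 cells led by Agrp and Npy. The remaining clusters lay between 12.8 CPM in erythrocyte-like and 44.2 CPM in macrophage or microglia-like cells. A UMI was found in 38.9% of pars tuberalis-like cells (25.9 to 53.1%), in 71.4% of neuron-like cells (56.7 to 83.4%), whose depth was far greater with a median of 31422 UMIs, and in 10.3% of erythrocyte-like cells (6.8 to 14.9%). The mean was 45.9 UMIs a cell in the pars tuberalis-like and 0.112 in the erythrocyte-like cluster.

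The gonadotropin beta subunits were close to the limit of detection. Lhb had 14 UMIs in the pars tuberalis-like cluster, 30.9 CPM (16.9 to 51.8), and 12 UMIs in all other cells together. Fshb had 12 UMIs there, 26.5 CPM (13.7 to 46.2), and 4 elsewhere. Erythrocyte-like cells held 1 UMI of each, 0.476 CPM. A UMI of Lhb was seen in 13% of pars tuberalis-like cells (5.37 to 24.9%) and in 0.413% of erythrocyte-like cells, and one of Fshb in 7.41% (2.06 to 17.9%) and 0.413%.

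Gh and Prl, the products of somatotropes and lactotropes, had no cluster of their own. Gh had 28 UMIs in 28 cells and Prl 11 UMIs in 11 cells, never more than 1 a cell. Gh was seen in 3.7% of pars tuberalis-like cells (0.452 to 12.7%) and in 2.07% of erythrocyte-like cells (0.674 to 4.76%), so its share was not above the background. Prl was not seen in any of the 54 pars tuberalis-like cells, which allows a share of up to 6.6%, and 3 UMIs there would have been 6.62 CPM, while its highest level, 7.09 CPM (2.3 to 16.6) in OPC-like (oligodendrocyte precursor) cells, came from 5 UMIs.

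**Figure D1:**
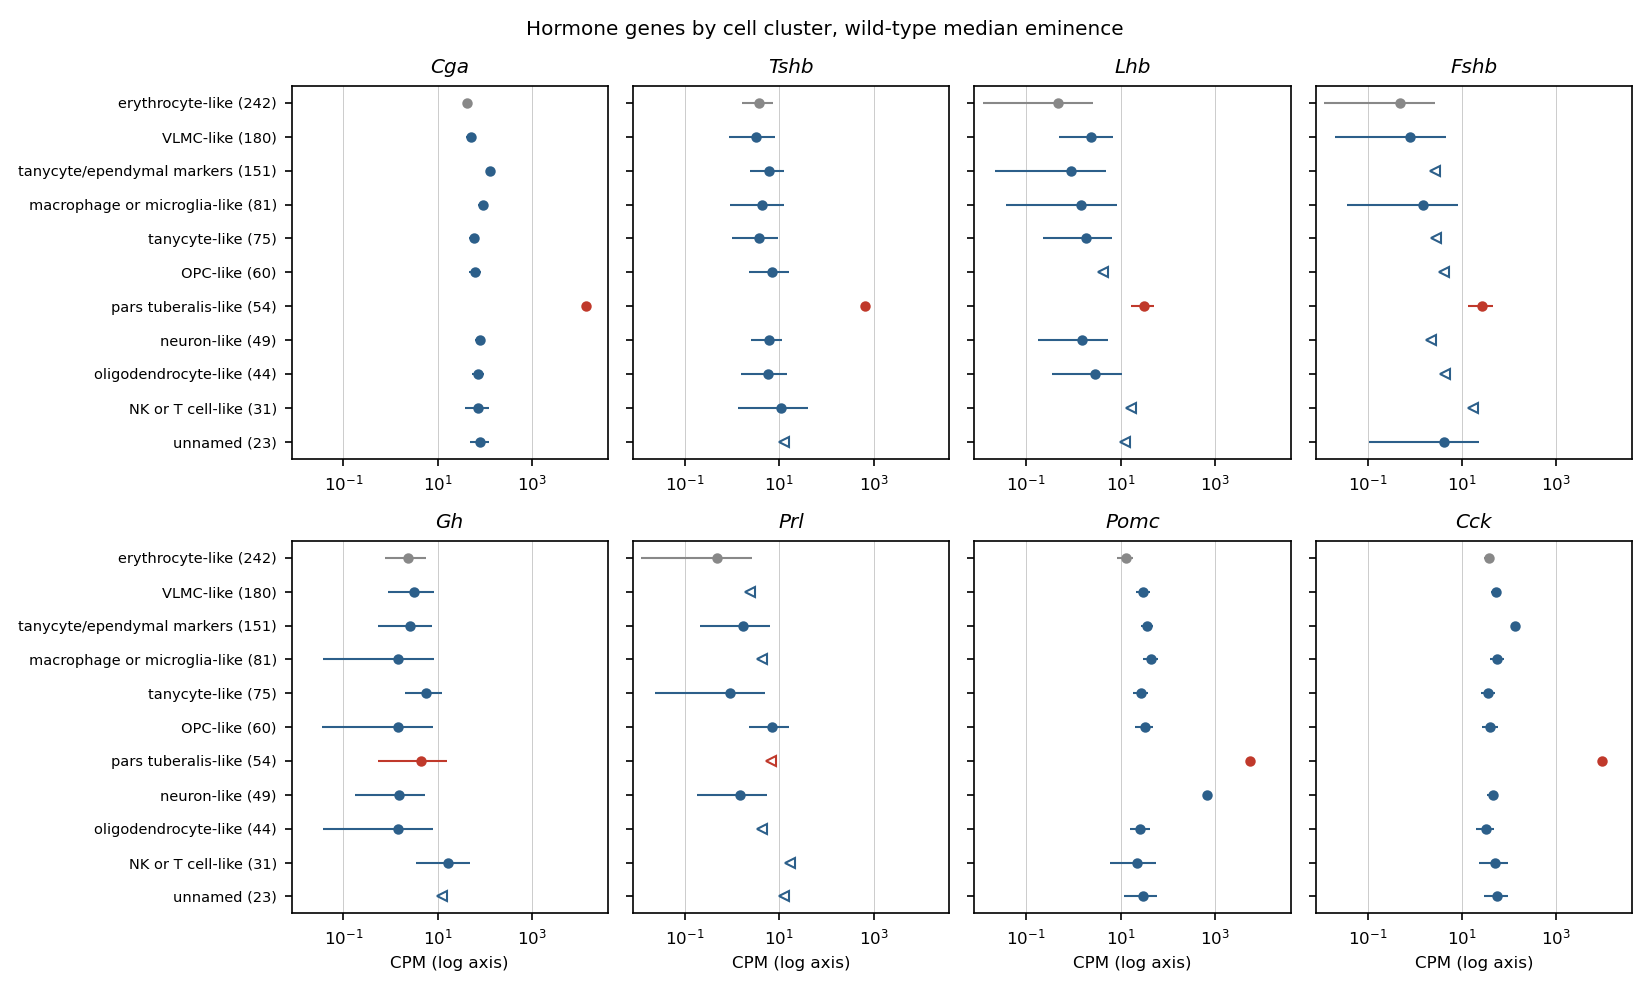
CPM of each hormone gene (log axis) in the 11 cell clusters of the single-cell library, with the number of cells in brackets. Points are sums over cells with exact Poisson 95% intervals, open triangles stand at 3 UMIs for a cluster with no UMI, red is the pars tuberalis-like and grey the erythrocyte-like cluster, and Cga, Tshb and Cck stand apart in the red cluster while Gh and Prl do not.

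The transcripts were also compared in proportion to Cga, inside the pars tuberalis-like cluster and in the sum of all other cells. Per Cga UMI the pars tuberalis-like cluster held 0.677 Cck UMIs, and all other cells together held 0.76, with 0.449 to 1.03 in single clusters. The ratio of Tshb to Cga UMIs was 0.0476 inside and 0.0685 outside, with 0 to 0.154 in single clusters. Pomc stood at 0.403 per Cga UMI inside and at 0.392 in all other cells when neuron-like cells were left out, while it was 9.01 in the latter. Lhb and Gh did not keep such a proportion, with 14 Lhb and 2 Gh UMIs inside against 12 and 26 outside. The part of free RNA in these low levels was not tested. A single cell of the unnamed cluster with tanycyte and ependymal markers differed from its neighbours: it held 54 Cga, 92 Cck, 1 Tshb and 291 Chga UMIs among 12050, and it was not called a doublet. Without it that cluster held 84.9 CPM of Cga and 49.5 CPM of Cck, within the range of other clusters.

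The pars tuberalis-like cluster divided by hormone into separate sets of cells. At a minimum of 10 UMIs, which was set after the values were seen, 22 cells had Cga (12 to 1545 UMIs, median 119.5) while the other 32 had at most 2. Another 6 cells had Pomc (48 to 669 UMIs) while the other 48 had at most 3, and no cell passed for both genes. The remaining 26 cells passed for neither and were shallow, with a median of 3977 UMIs against 8452 in the Cga cells and 8186.5 in the Pomc cells. The Cga cells held 22234 CPM of Cga (21682 to 22797), and the Pomc cells 48183 CPM of Pomc (46297 to 50125). No called doublet was among the Cga or the Pomc cells.

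Most Cga cells were of the thyrotropin and cholecystokinin kind. Cck was found in all 22, at 10 or more UMIs in 19, and Tshb in 16, at 10 or more in 8. The richest cell had 1545 Cga, 902 Cck and 81 Tshb UMIs, and the next had 748, 492 and 48. Across the 22 cells the number of Cck UMIs per Cga UMI ran from 0.00181 to 4.65 with a median of 0.835, and that of Tshb from 0 to 0.289 with a median of 0.0356. Spearman's rho between CPM values over these 22 cells of 1 library was 0.77 for Cga and Cck and 0.60 for Cga and Tshb, where each CPM shares the depth of its cell.

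A few Cga cells differed in their beta subunits. Lhb or Fshb was found in 7 of the 22, and only 3 of those 7 also had Tshb. In 1 cell 554 Cga UMIs stood beside 6 Fshb, 3 Lhb and 1 UMI of Gnrhr, the receptor for gonadotropin-releasing hormone, with no Tshb and 1 Cck UMI among 35093. Another had 12 Cga, 3 Lhb and 1 Fshb UMIs, no Tshb and 1 Cck, and a cell with 17 Cga had 2 Fshb and no Tshb. These counts are small, and no other cell of the library had more than 3 UMIs of Lhb or of Fshb. Nr5a1 had no UMI in any cell.

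The 6 Pomc cells carried little of the alpha subunit. They held 0 to 2 Cga UMIs each, no Tshb, Lhb or Fshb, and 5 Cck UMIs in all. Tbx19, the factor of corticotropes and melanotropes, had 14 UMIs in 5 of the 6 cells and none in the 22 Cga cells. Pitx1 had 2 UMIs in the Pomc cells and 223 in the Cga cells, Gata2 had 0 and 96, and Chga, a granule protein, had 28 and 9652. The globin transcript Hbb-bs gave 103 UMIs and the neuronal transcript Snap25 gave 22 UMIs in the 6 cells, and their part in these profiles was not tested.

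Pomc in neurons rested on 5 of the 49 neuron-like cells. These held 496, 160, 134, 41 and 28 Pomc UMIs, and no other neuron-like cell exceeded 8. Cartpt, the partner transcript of arcuate Pomc neurons, was found in 4 of the 5 with 310, 291, 58 and 36 UMIs, and Agrp, of the opposing neuron type, stood at 4 or fewer in each. Tbx19 was not seen in them. Together the 5 cells held 6869 CPM of Pomc (6418 to 7344), against 48183 CPM in the 6 cells of the pars tuberalis-like cluster.

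**Figure D2:**
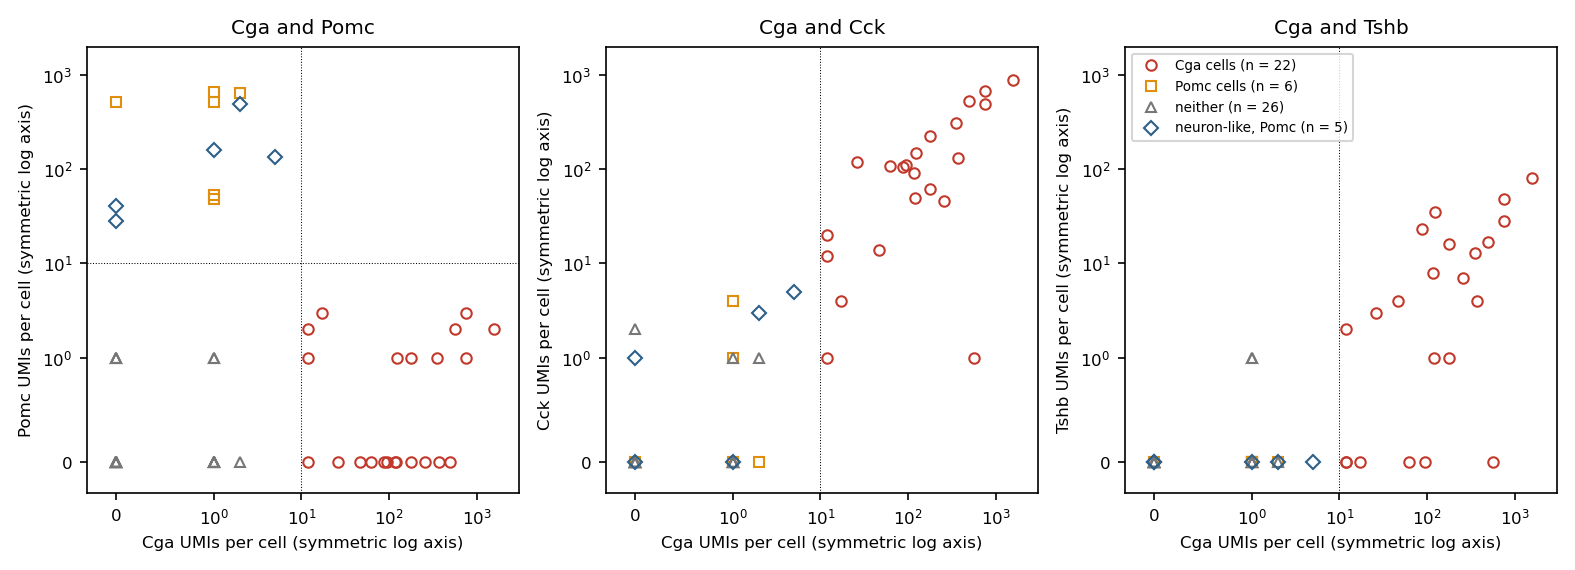
UMIs of Pomc, Cck and Tshb against UMIs of Cga in single cells (symmetric log axes, dotted lines at 10 UMIs): 22 Cga cells, 6 Pomc cells and 26 cells with neither of the pars tuberalis-like cluster, and 5 neuron-like cells with Pomc. Cga and Pomc are not high in the same cell, while of the 22 Cga cells all have a Cck UMI and 16 a Tshb UMI.

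Other genes of the pituitary system were read from lists, and the cluster in which each was highest was noted. Of 10 pituitary transcription factors with a UMI, 9 were highest in the pars tuberalis-like cluster, where 8.05% of all 18181 genes with a UMI were highest. The most abundant there were Pitx1 at 523 CPM (458 to 594), Isl1 at 289 and Gata2 at 218, against 2.85, 0.951 and 0.476 in erythrocyte-like cells. Lhx4, Pou1f1 (the factor of somatotropes, lactotropes and anterior thyrotropes), Neurod4, Nr5a1 and Pax7 had no UMI. Of 11 genes of peptide processing and secretory granules, 6 were highest in the cluster, led by Chga at 21409 CPM, Chgb at 5081 and Scg2 at 2690. Of 8 detected receptors for releasing factors or photoperiod signals, 2 were highest there, Gnrhr with a single UMI and Mtnr1a at 33.1 CPM (18.5 to 54.6). All 15 Mtnr1a UMIs of the library lay in 8 Cga cells. Crhr1 at 6.62 CPM and Thrb at 4.41 CPM were next in the cluster.

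Receptors of the hormones themselves were read in the same way. Of 8 with a UMI, 1 (12.5%), Prlr, was highest in the pars tuberalis-like cluster, from 9 UMIs, beside the 8.05% of all genes. Its level there was 19.9 CPM (9.08 to 37.7). The neuron-like cells rich in Pomc, described above, held 16 of the 37 Prlr UMIs of the library, at 128 CPM. Ghr was highest in neuron-like cells at 167 CPM (146 to 190), Tshr, the thyrotropin receptor, in tanycyte-like cells at 77.6 CPM (61.9 to 96) and Mc3r, a receptor for Pomc peptides, in neuron-like cells at 26.2 CPM (18.2 to 36.4). Tshr was present in 52% of tanycyte-like cells and in 3.31% of erythrocyte-like cells. Of 7 releasing and inhibiting factors with a UMI, 1, Gnrh1, was highest in the pars tuberalis-like cluster, from 4 UMIs. The most abundant were Sst at 286 CPM (258 to 317) in neuron-like, Tac1 at 47.5 CPM in VLMC-like and Th at 12.7 CPM in neuron-like cells.

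The genes most like the hormones in their distribution over the 11 clusters were sought among 11095 genes with at least 50 UMIs, by Pearson's r of log2(CPM + 1). Among the 5 nearest to Cga were Cck (0.99), Apoc3 (0.99), Chga (0.98) and Cldn9 (0.96). Among those nearest to Cck were Cga (0.99), Chga (0.98), Apoc3 (0.98) and Ces1d (0.96), and those of Tshb were Cldn7 (0.96), Epcam (0.94), Apoc3 (0.93), Ces1d (0.91) and Cldn9 (0.91). Pomc was nearest to Scg2 (0.98), Ppfia3 (0.97), Resp18 (0.96), Chgb (0.95) and Fam150b (0.94). These values describe 11 clusters of 1 library that share free RNA.

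The bulk libraries held 4928456 to 13816596 counts. Genes with a count numbered 34942, 21986 and 17874 in controls 1, 2 and 3. In mutants 1 to 4 they numbered 25910, 35978, 40852 and 39508. Controls 2 and 3 thus had the fewest genes, at the greatest depths of 12209728 and 13816596 counts. The part of this in zero or low values of single libraries was not tested. Levels are CPM after TMM scaling. Control 1 and mutant 3 stood apart by Gh, and mutants 3 and 4 by the X-inactivation transcript Xist (134 CPM in both, at most 1.5 CPM in the other 5). Ddx3y, a Y-linked gene, stood at 0.536 CPM or less in mutants 3 and 4 and at 69.7 to 118 CPM in the other 5. By these 2 genes mutants 3 and 4 had the pattern of females, and all 3 controls and mutants 1 and 2 that of males. Log2 fold changes of the hormone genes are given with and without control 1, mutant 3 or mutant 4 where they differ. Those of the other listed genes, the marker sums and the ratios were not recomputed without any library. Rax stood at 26.8 to 143 CPM in controls and at 33.2 to 175 CPM in mutants, and Braf at 13.0 to 33.8 and 13.9 to 28.4 CPM. Counts of the whole gene do not show the engineered alleles. edgeR's quasi-likelihood test called 0 of 20466 genes at an adjusted p of 0.05 (0%), limma-voom 0 and DESeq2 301 (1.47%), and 1661 genes (8.12%) had an unadjusted edgeR p under 0.05. In bulk tissue, fewer cells of a type and less RNA per cell cannot be told apart.

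None of the 7 hormone genes tested passed the adjusted threshold, and Gh failed the filter on low counts. Of these, 5 had a lower fitted level in the mutants. Cga, Lhb, Fshb and Prl had an unadjusted edgeR p under 0.05, all 4 with a lower fitted level in the mutants. Of all genes, 3.89% had such a p with a lower fitted level in the mutants. The direction of Prl rested on control 1, and its log2 fold change was 4.95 without that library. Cga alone had every mutant library below every control, as did 3.18% of genes. The median log2 fold change of the 7 was -2.12, and that of all genes tested 0.12.

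**Figure D3:**
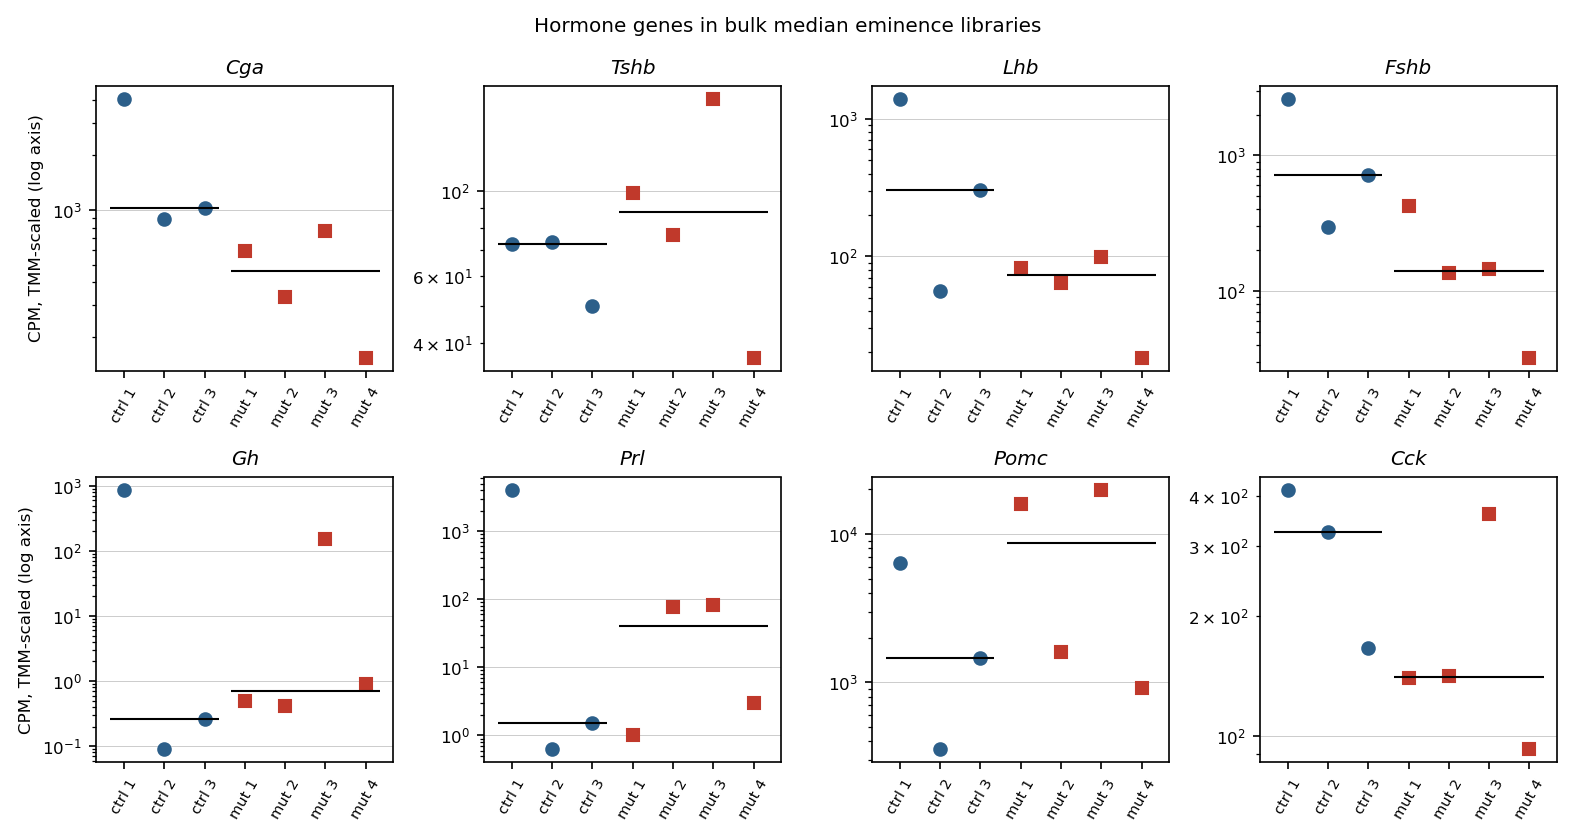
CPM (TMM-scaled, log axis, scale differs by gene) of the 8 hormone genes in 3 control (ctrl, circles) and 4 BrafV600E (mut, squares) libraries, each from 1 mouse, with lines at the group medians. Cga alone is lower in every mutant, and Gh and Prl are high in single libraries.

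Cga, the alpha subunit, stood at 4073, 897 and 1027 CPM in controls 1, 2 and 3. In mutants 1 to 4 it stood at 593, 333, 762 and 154 CPM. Control 1 was the highest library and mutant 4 the lowest, and the groups did not overlap. The log2 fold change (mutant minus control) was -2.12 ± 0.63 (SE), with an edgeR adjusted p of 0.44. Without control 1 it was -1.09, and DESeq2 gave an adjusted p of 0.0223.

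Tshb did not follow its partner subunit. Controls held 72.4, 73.5 and 50.1 CPM and mutants 98.8, 76.8, 174 and 36.5 CPM. Mutant 3 was the highest and mutant 4 the lowest, so the mutants enclosed the controls. It gave a log2 fold change of 0.56 ± 0.46 (edgeR adjusted p = 0.81).

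Lhb in controls was at 1396, 56.1 and 302 CPM, and in mutants at 82.3, 63.7, 99.7 and 18.2 CPM. Control 2 lay below 3 of the mutants and control 1 far above all. Its log2 fold change was -3.14 ± 0.87 (edgeR adjusted p = 0.42) and -1.46 without control 1.

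Fshb was at 2611, 297 and 711 CPM in controls against 424, 136, 145 and 32.0 CPM in mutants. Again control 1 was the highest, and mutant 1 lay above control 2, the only overlap. The log2 fold change was -2.71 ± 0.83 (edgeR adjusted p = 0.44) and -1.46 without control 1.

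Gh separated single libraries rather than groups. The counts were 7552, 1 and 3 in controls and 5, 4, 908 and 5 in mutants, or 853, 0.0888 and 0.257 CPM against 0.5, 0.417, 152 and 0.894 CPM. Control 1 and mutant 3 held nearly all Gh reads. Gh did not enter the filtered fit, so no fold change is given.

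Prl showed a like split with another member. Controls held 3969, 0.622 and 1.54 CPM and mutants 0.999, 76.8, 82.5 and 3.04 CPM. Control 1 was again highest, followed by mutants 3 and 2, and the rest lay at 3.04 CPM or below. The log2 fold change was -5.01 ± 2.25 (edgeR adjusted p = 0.61), it was -0.12 with limma-voom, and it turned to 4.95 without control 1. Mutant 2 differed from the other libraries rich in Prl: it had 737 Prl and 4 Gh counts, a ratio of 184, while the ratio was 4.65 in control 1 and 0.544 in mutant 3.

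Pomc varied 55.8-fold over the 7 libraries, more than Cga (26.5-fold), Tshb (4.78-fold) and Cck (4.45-fold). It varied less than Lhb (76.6-fold), Fshb (81.6-fold), Prl (6383-fold) and Gh (9608-fold). Controls held 6421, 353 and 1462 CPM, and mutants 15892, 1605, 19679 and 916 CPM. Mutants 1 and 3 and control 1 were the highest, and the groups overlapped. The log2 fold change was 1.79 ± 1.14 (edgeR adjusted p = 0.75), and 3.37 without control 1. Tbx19, named here after its values were seen, was highest in the same libraries, at 44.1 CPM in mutant 3, 40.3 in control 1 and 36.7 in mutant 1 and at most 6.88 CPM in the others.

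Cck in controls was at 412, 325 and 166 CPM and in mutants at 140, 141, 360 and 92.6 CPM. Mutant 3 lay among the controls and the other 3 mutants below them. The fitted log2 fold change was -0.72 ± 0.47 (edgeR adjusted p = 0.76).

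With no filter on low counts, edgeR called 240 of 47682 genes (0.503%), among them Cga, Lhb, Fshb, Gh, Prl and Pomc. Without control 1 and mutant 3 the log2 fold changes were -1.41 for Cga, -1.69 for Lhb, -1.34 for Fshb and 2.77 for Pomc. Without mutants 3 and 4, the libraries with Xist, they were -2.12, -3.01, -2.12 and 1.66. Tshb stood at 0.12 without mutant 3 and at 0.21 without control 1 and mutant 3. With no filter Prl had an edgeR adjusted p of 4.96e-24, although its controls ran from 0.622 to 3969 CPM and the groups overlapped. The calls of that fit are therefore not read as a measure of the spread between mice.

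The balance of beta to alpha subunits was compared within each library, which needs no scaling. Tshb reads per Cga read numbered 0.0178, 0.0819 and 0.0488 in controls. They numbered 0.167, 0.231, 0.229 and 0.237 in mutants, above every control. The mean log2 ratio was -4.59 ± 1.12 (SD, n = 3) in controls and -2.23 ± 0.24 (SD, n = 4) in mutants, a difference of 2.37, with p = 0.0571 in an exact two-sided permutation test, the smallest that 35 splits allow, and 0.343 after Benjamini-Hochberg adjustment over 6 ratios. Lhb reads per Cga read ran from 0.0626 to 0.343 in controls and from 0.118 to 0.191 in mutants (exact permutation p = 0.629, adjusted 0.754). For Fshb the ranges were 0.331 to 0.693 and 0.19 to 0.715 (exact permutation p = 0.4, adjusted 0.686). Mutants 1 and 2 held 0.715 and 0.407 Fshb reads per Cga read, and mutants 3 and 4, with the female pattern, 0.19 and 0.208. Fshb reads per Tshb read ran from 4.04 to 36.1 in controls and from 0.83 to 4.29 in mutants (exact permutation p = 0.114, adjusted 0.343). They numbered 4.29 and 1.77 in mutants 1 and 2, and 0.83 and 0.877 in mutants 3 and 4. The part of sex in these ratios was not tested. The gonadotropin subunits thus overlapped between groups in their proportion to Cga, and Tshb did not. Cga itself was lower in every mutant, so a gene with no change would also have a higher ratio to it. The share of all genes whose ratio to Cga separates the groups was not tested.

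**Figure D4:**
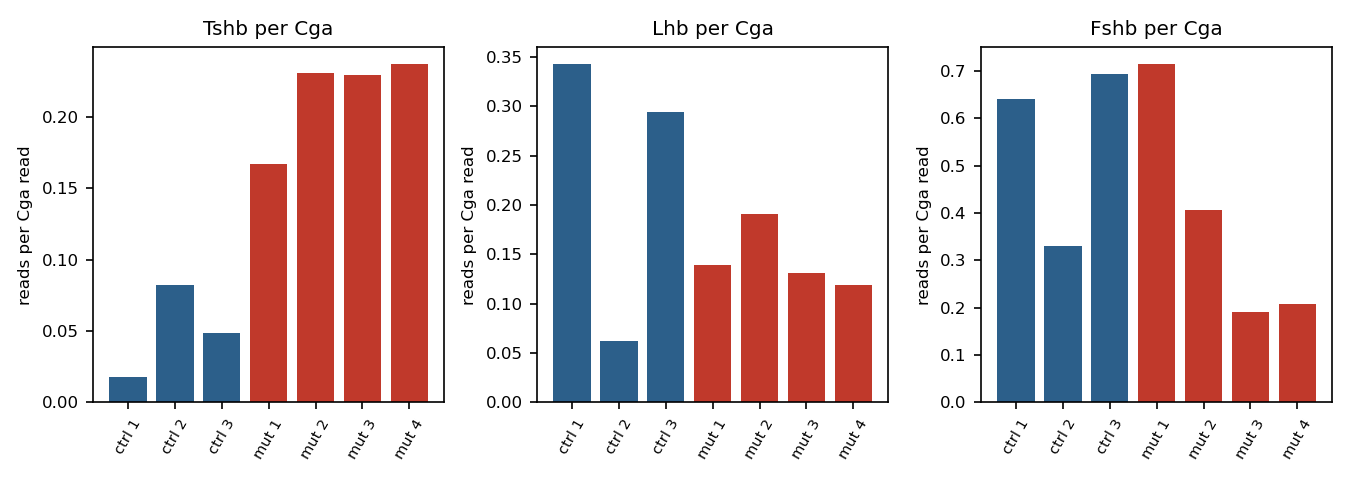
Reads of Tshb, Lhb and Fshb per read of Cga in each bulk library (bars from 0, controls blue, BrafV600E red, 1 mouse each). Tshb per Cga is above every control in all 4 mutants, between 0.167 and 0.237.

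Over the 7 libraries, Cga, Lhb and Fshb varied together: Pearson's r of log2 CPM was 0.94 for Cga and Fshb, 0.93 for Cga and Lhb and 0.93 for Lhb and Fshb. Cga and Cck had 0.82, while Cga and Tshb had 0.29 and Tshb and Pomc 0.71. These are descriptions of 7 libraries that include the difference between groups. By the same measure Cga was most like Tmprss2 (0.98), Fetub (0.97), Epcam (0.97), 1500015A07Rik (0.97) and Cast (0.97), Cck most like Apoc3 (0.98), Ggcx (0.98), Rtl1 (0.94), Rab25 (0.94) and Gm13408 (0.94). Tshb was nearest to Rps3, Dyrk3 and Ipp (0.95 each), Gm5525 and Gm10123 (0.92 each), and Pomc to Tinf2 (0.96), Gm49066 (0.96), Dusp28 (0.96), Nr4a2 (0.94) and Casp8ap2 (0.92).

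Markers of the pars tuberalis had lower mutant values, as Cga did. All 6 of the list had a lower fitted level in mutants, and their summed CPM was 875, 505 and 359 in controls against 269, 135, 267 and 71.8 in mutants, without overlap. The summed list of other pituitary endocrine cells was 201, 17.3 and 76.9 CPM in controls and 75.6, 37.4, 81.7 and 26.3 CPM in mutants, with Pou1f1, Pax7 and Neurod4 at 0 in control 3. VLMC markers ran from 1167 to 2916 CPM in controls and from 380 to 803 in mutants, endothelial markers from 272 to 428 and from 85.7 to 149, and OPC markers from 102 to 145 and from 249 to 806. The part of these cell types in the values of the hormone genes was not tested.

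Most transcription factors of the pituitary had lower fitted levels in the mutants. Of 13 tested, 9 had a negative log2 fold change, 6 of them at an unadjusted edgeR p under 0.05, 0 passed the adjusted threshold, and the median was -1.47. Of all 20466 genes tested, 8858 had a negative and 11608 a positive log2 fold change, with 796 and 865 of them at such a p. Hesx1, a repressor of early pituitary development, stood at 16.5, 4.97 and 17.3 CPM in controls and at 0.5 to 0.894 CPM in mutants, without overlap (log2 fold change -3.91 ± 0.66, edgeR adjusted p = 0.13). In the other direction the smallest p-values belonged to Pax7, the melanotrope factor (log2 fold change 2.37, edgeR adjusted p = 0.72), and Lhx4 (1.01 ± 1.66).

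Genes of processing and storage were divided. Of 11 tested, 7 had a negative log2 fold change, 4 of them and 1 of the positive ones at an unadjusted edgeR p under 0.05, with a median of -0.20 beside 0.12 for all genes. Over all 20466 genes tested, 8858 had a negative and 11608 a positive log2 fold change, 796 and 865 of them at such a p. Chgb, a granule protein, had -1.32 ± 0.35 (edgeR adjusted p = 0.41), its controls at 1550, 991 and 880 CPM and its mutants at 251 to 559 CPM, and Pcsk1, the convertase that cuts corticotropin from Pomc, had -1.49 ± 0.44. Vgf, a granule peptide of neurons, had 2.15 ± 0.58 (edgeR adjusted p = 0.41), with 16.3 to 36.2 CPM in controls and 42.3 to 253 CPM in mutants, and Pcsk2, the convertase that trims melanocyte-stimulating hormone, had 1.21 ± 0.58.

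**Figure D5:**
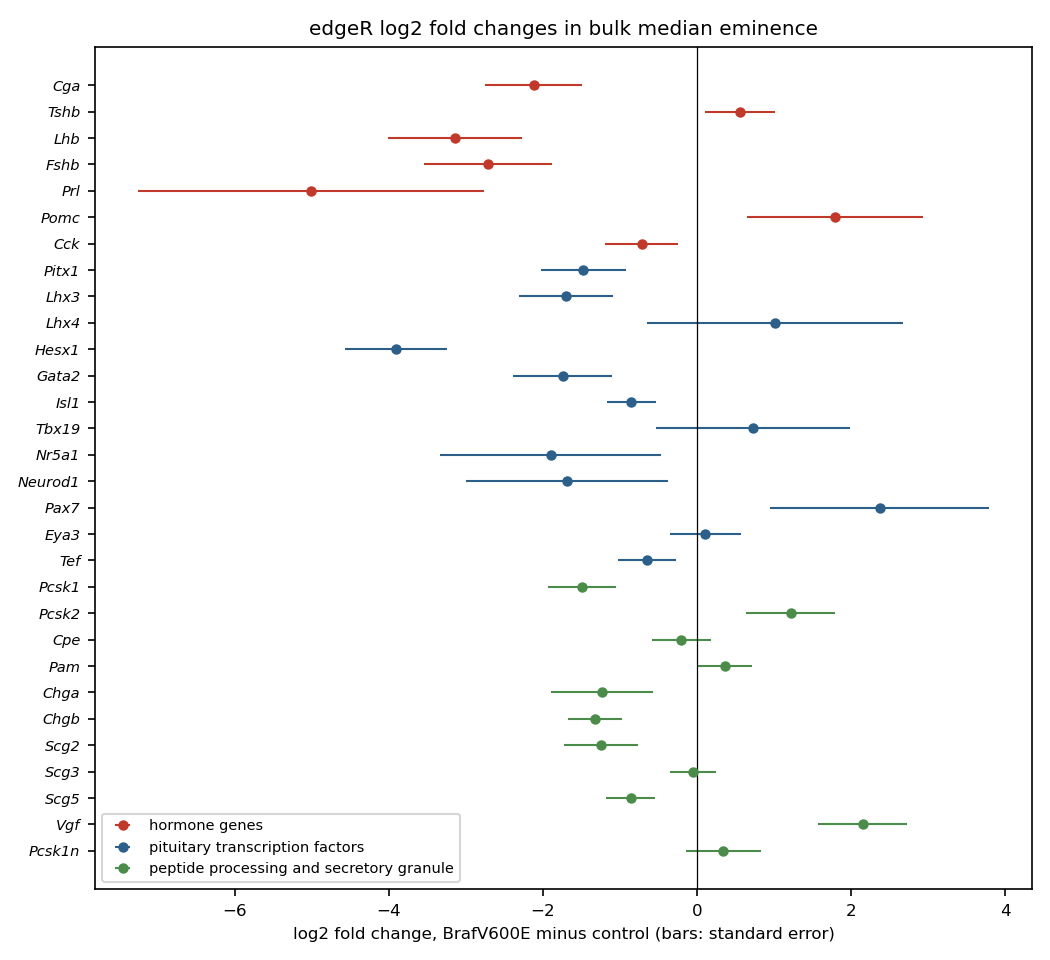
edgeR log2 fold changes (BrafV600E minus control, 7 bulk libraries; bars are standard errors) of 7 hormone genes, 12 pituitary transcription factors and 11 genes of peptide processing and secretory granules. All hormone genes shown but Tshb and Pomc, and 8 of the transcription factors, lie below 0, and none of these genes passed an adjusted p of 0.05.

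Receptors for releasing factors and photoperiod signals were divided too. Of 11 tested, 5 had a negative log2 fold change, with 1 in each direction at an unadjusted edgeR p under 0.05 and a median of 0.35. Among all 20466 genes, 8858 had a negative log2 fold change, with 796 lower and 865 higher at such a p and a median of 0.12. Gnrhr stood at 70.8, 5.15 and 44.4 CPM in controls and at 7.09, 5.52, 8.52 and 1.97 CPM in mutants (-2.75 ± 0.74, edgeR adjusted p = 0.41), with control 2 within the mutants, as for Lhb. Mtnr1a had -1.04 ± 0.74, Thrb 0.59 ± 0.51, and Sstr2, a somatostatin receptor, 2.13 ± 0.93 (edgeR adjusted p = 0.60), with 0.0856 to 13.1 CPM in controls and 18.8 to 43.1 CPM in mutants.

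Receptors of the hormones and the hypothalamic factors had no called gene either. Of 10 hormone receptors tested, 6 had a positive log2 fold change, 2 at an unadjusted edgeR p under 0.05, as had 11608 and 865 of all 20466 genes. Prlr, the prolactin receptor, stood at 0.856 to 16.9 CPM in controls and at 17.6 to 36.3 CPM in mutants (1.72 ± 0.74, edgeR adjusted p = 0.59). Cckar, a cholecystokinin receptor, had 2 counts in control 1 and none in the other controls and 1.8 to 5.34 CPM in mutants, and Mc4r (-1.78 ± 1.09) and Tshr (-0.29 ± 0.41) had the smallest p-values in the other direction. Of 6 releasing or inhibiting factors tested, 4 had a positive log2 fold change, 1 of them at an unadjusted edgeR p under 0.05, beside the same 11608 and 865 of all 20466 genes. Ghrh, growth hormone-releasing hormone, stood at 2.31 to 11.4 CPM in controls and at 8.39 to 104 CPM in mutants (3.03 ± 0.86, edgeR adjusted p = 0.43), followed by Trh (2.26 ± 1.34), and Gnrh1 (-1.66 ± 0.94) and Th (-0.38 ± 0.73) were the first with lower values.

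The members' positions bear on how their reads could be counted. In the GENCODE annotation of GRCm38, Cga lies at chr4:34893779-34907370 on the plus strand and shares 25.8% of its 50-base exon stretches with Platr9, a transcript on the other strand, and Lhb at chr7:45420820-45421897 shares 14.1% with Ruvbl2, also on the other strand. Tshb at chr3:102775465-102782718 overlaps Tspan2 and Prl at chr13:27057570-27065205 overlaps Gm47888 without shared exon stretches. Fshb (chr2:107056140-107059656), Gh (chr11:106300271-106301865), Pomc (chr12:3954951-3960642) and Cck (chr9:121489824-121495694) overlapped no other gene. The Smart-seq2 libraries do not keep the strand, so reads from such shared stretches cannot be told apart. Platr9 had 2 to 24 counts a library where Cga had 861 to 36042, and Ruvbl2 had 289 to 1821 counts where Lhb had 102 to 12358.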

How the data were processed

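The ME of 10 wild-type mice was pooled for 1 single-cell library, and the ME of 3 control and 4 BrafV600E mice was sequenced as bulk Smart-seq2 libraries. The authors deposited UMI counts per gene and cell from Cell Ranger (2.0.1 in the submitters' notes) and a table of raw read counts per Ensembl gene, with 0 columns left unused. The aligner and counter of the bulk reads are not given in the sources used here. All 55450 bulk identifiers were in GENCODE M21. Groups followed the labels. The 8 genes and the lists were chosen with earlier results of these data known. Bulk counts were tested in edgeR 4.0.16 (R 4.3.3; TMM, low-count filter by group size, quasi-likelihood F test, prior count 2, Benjamini-Hochberg), without covariates. Cells were clustered in Seurat (20 components, resolution 0.8) and doublets called by Scrublet in scanpy 1.11.5 (3 of 990 cells). By a rule set after the data were seen, a cluster took the name of the list with the largest share of its markers enriched at least 3-fold (3 or more markers, ties by list name), and stayed unnamed where no list passed or both tanycyte and ependymal markers did. Genes named from each list were the 3 with the highest CPM in the pars tuberalis-like cluster (for hormone receptors and releasing factors, in any cluster) and the 2 with the smallest p in each direction in bulk. Alternatives were DESeq2 1.42.0, limma-voom (limma 3.58.1), other scalings, filters and clusterings, and leaving out libraries. Values of some listed genes are not reported here. The steps were tested on simulated data. Intervals and floors cover counting error only.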

Additional observations from a re-analysis of the deposited data

Results flagged for a closer look

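In the 4 BrafV600E libraries, 14 sets of values (8 hormone genes and 6 ratios between them) were checked for a library far from the others by Dixon's ratio, and chance marks about 1 in 20 such sets. Mutant 3 held 152 CPM of Gh where the other 3 mutants held 0.417 to 0.894 CPM. Mutant 2 held 184 Prl reads per Gh read, from 737 and 4 counts, where the other 3 held 0.544 to 3.4. Mutant 1 held 0.167 Tshb reads per Cga read, below the 0.229 to 0.237 of the other 3 mutants and above every control.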

How the results depend on the processing

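The count of genes called in bulk, 0 by edgeR's quasi-likelihood test with 1661 at an unadjusted p under 0.05, became 301 with DESeq2, 1 with upper-quartile scaling, 3 with library sizes alone, 240 with no filter on low counts, 13 with at least 10 counts in every library and, chosen after seeing the data, 25 with edgeR's later quasi-likelihood method. It ran from 0 to 45 when each library was left out, 45 without control 1 and 16 without control 3. Without control 1, 6910 of 23560 genes had an unadjusted edgeR p under 0.05. Of the refitted log2 fold changes of the hormone genes, 123 kept direction and side of the threshold, 6 passed it and 3 reversed. Cga passed it with DESeq2 (-2.14), and with no filter so did Cga (-2.11), Lhb (-3.12), Fshb (-2.65), Prl (-4.98) and Pomc (1.81). Prl reversed to 4.95 without control 1 (range -5.61 to 4.95 over left-out libraries), to 4.41 without control 1 and mutant 3, and to 4.12 with the replicate number as a block. Over left-out libraries Cga ran from -2.49 to -1.09, Lhb from -3.68 to -1.46, Fshb from -3.53 to -1.46, Pomc from 1.13 to 3.37, Tshb from 0.12 to 0.84 and Cck from -1.27 to -0.45. Gh, outside the filtered fit, was at 6.56 without control 1 and -3.52 without control 2 or 3. Same-numbered libraries did not deviate together (r = -0.454, -0.00762 and -0.227), and no label says that the numbers pair them. These correlations cannot exclude a pairing, since each deviation is from the mean of a few libraries. The block called 0 genes, with 549 at an unadjusted p under 0.05, and changed no other direction among the hormone genes. In the cluster that held the hormone cells (with 10 components, 44 cells and not named pars tuberalis-like) Cga was at 14323 CPM with 10 components, 14025 with 30 and 8757 as the mean of cells. Cck was 9709, 9490 and 6463 under the same settings, Pomc 5773 with 10 components and 6000.1 as the mean of cells, and, as the mean of cells, Tshb 444 and Fshb 10.96. Thinned to 3000 UMIs a cell, Cga was seen in 61.1% of pars tuberalis-like and 14.9% of erythrocyte-like cells, Cck in 40.7% and 7.44%, Pomc in 27.8% and 4.96%, Tshb in 25.9% and 1.24%, Lhb in 5.56% and 0%, and Gh in 0% of both. Low counts limit Lhb, Fshb, Gh and Prl in single cells. The cause of these shifts was not tested.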

Other observations

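The 26 cells of the pars tuberalis-like cluster without 10 UMIs of Cga or Pomc were of more than 1 kind. Oxt, oxytocin, led them with 877 UMIs, of which 870 lay in a single cell. Epcam, an epithelial adhesion gene, had 110 UMIs in 5 cells, with 9 to 50 each, and Krt18, an epithelial keratin, was found in the same 5 cells. Pitx1 had 12 UMIs in 4 of the 26 cells. Cyp2f2, a marker of the pars tuberalis list, had 13 UMIs in 6 of them and 57 in 7 of the Cga cells. One of the 26 held 3 Fshb UMIs and no Cga. Other genes that led the 22 Cga cells, named after their values were seen, were Apoc3, an apolipoprotein, at 4762 CPM, Ces1d, a carboxylesterase, at 2905 CPM and the nuclear receptor Rorb at 858 CPM.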
